A study of Saccharomyces cerevisiae with 8 samples.

Results

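Antisense transcription over yeast genes was examined through 430 cryptic unstable transcripts (CUTs) that run opposite an open reading frame transcript (ORF-T, a gene's coding region with its untranslated ends where known). Of the 732 CUTs in the deposited table of 10054 transcripts, these are the ones with at least 50% of their length overlapped by a single ORF-T on the same chromosome and the other strand. They faced 403 different ORF-Ts, which are called partners here, and 26 partners faced more than 1 CUT. Strand-specific RNA-Seq of rRNA-depleted total RNA was made from 4 preparations of wild-type (WT) cells and 4 preparations of *rrp6Δ* cells, all grown to an OD600 of 0.8. Both strains are isogenic to BY4741, a *MATa* laboratory strain, and the *RRP6* deletion is a single strain of the yeast knockout collection. P-values measure the spread between the numbered preparations of these strains. Except where the replicate number is named as a block, libraries were taken as unpaired. *RRP6* itself held between 660 and 1787 counts in the WT libraries and between 16 and 60 in the *rrp6Δ* libraries. The 6 *MATa* genes checked summed to between 4622 and 7829 counts per WT library and between 5509 and 9742 per *rrp6Δ* library, against between 50 and 102 for the 2 genes of *MATalpha* cells present in the table, *STE3* and *SAG1*. *HIS3* and *URA3*, of which BY4741 carries deletions, together held between 98 and 158 counts in the libraries of both strains, and where these counts come from was not tested.

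CUTs are short noncoding RNAs made by RNA polymerase II. Their transcription is ended by the Nrd1-Nab3-Sen1 (NNS) complex, in which Nrd1 and Nab3 bind short sequences in the new RNA, and the RNA is then given a short poly(A) tail by the TRAMP complex and degraded by the nuclear exosome with its 3′ to 5′ exonuclease Rrp6. Antisense transcription that runs into a gene's promoter has been linked to lower expression of some genes, with *PHO84*, the high-affinity phosphate transporter, as a well-known case. CUTs were annotated in an earlier study as transcripts detected when *RRP6* is missing, so a rise of a CUT in *rrp6Δ* belongs to the definition of the class and is not independent evidence. The partner ORF-Ts and the place of the CUT on the gene are not part of that definition.

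Sequences of 7 antisense CUTs are shown because the results below turn on these pairs, 4 with the CUT over the gene's 5′ end and 3 with the CUT further inside. Each is the 80-base window of the CUT, inside the coding region of the gene, with the most matches to the letters bound by Nrd1 (GTAA or GTAG) and Nab3 (TCTT). It is written 5′ to 3′ on the CUT strand in DNA letters from the RefSeq R64 (sacCer3) genome. Capitals mark the matches.
CUT281, antisense to *PHO84*, chrXIII:24850-24929, plus strand: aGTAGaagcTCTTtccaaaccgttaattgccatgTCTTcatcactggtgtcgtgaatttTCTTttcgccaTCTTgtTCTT
CUT402, antisense to *GYP5*, chrXVI:77077-77156, plus strand: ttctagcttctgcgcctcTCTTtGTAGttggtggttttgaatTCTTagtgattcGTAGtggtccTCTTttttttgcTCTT
CUT310, antisense to *RCE1*, chrXIII:814443-814522, plus strand: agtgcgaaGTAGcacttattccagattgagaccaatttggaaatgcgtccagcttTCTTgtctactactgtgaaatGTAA
CUT565, antisense to *VFA1*, chrV:415919-415998, minus strand: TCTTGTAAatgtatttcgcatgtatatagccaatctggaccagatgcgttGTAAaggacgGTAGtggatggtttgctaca
CUT882, antisense to *FMP40*, chrXVI:131482-131561, minus strand: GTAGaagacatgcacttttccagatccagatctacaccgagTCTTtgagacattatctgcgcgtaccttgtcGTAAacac
CUT397, antisense to *MSC6*, chrXV:1001598-1001677, plus strand: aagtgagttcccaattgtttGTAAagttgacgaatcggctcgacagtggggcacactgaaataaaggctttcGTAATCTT
CUT409, antisense to *OYE3*, chrXVI:226199-226278, plus strand: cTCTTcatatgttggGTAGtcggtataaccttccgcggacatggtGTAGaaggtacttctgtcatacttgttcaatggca

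The windows of CUT281 and CUT402 hold 6 matches each, a number reached by 0.741% of 100825 windows of 80 bases cut from the antisense strand of all coding regions. The windows of CUT310, CUT882, CUT397 and CUT409 hold 3 matches, reached by 20.2% of those windows, and that of CUT565 holds 4, reached by 7.28%. At least 1 GTAA or GTAG lies in 47.2% of all windows and at least 1 TCTT in 56.3%. Each printed window was chosen as the densest of its CUT, so it is expected to lie above a window taken anywhere. This holds more for long CUTs, which offer more windows. CUT281 and CUT402 have 2160 and 2864 bases, against between 240 and 392 for CUT565, CUT882, CUT397 and CUT409.

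Over whole CUTs, the letters bound by Nrd1 and Nab3 were denser on the CUT strand than on the gene strand of the same bases. On the CUT strand, the 412 members outside chromosome XI held 9.13 GTAA or GTAG and 13.1 TCTT per kilobase. On the opposite strand of the same intervals the densities were 5.75 and 4.91. The antisense strand of 5431 ORF-Ts as a whole held 8.27 and 11.3 per kilobase, so much of the difference between strands is shared by the antisense strand of genes in general. CUTs that are not antisense to an ORF-T held 10.4 GTAA or GTAG and 10.6 TCTT. CUTs over the gene's 5′ end (8.32 and 12.2) and CUTs not over it (9.46 and 13.5) had similar densities. Both kinds of match were present in 392 of the 412 members. GTAA, GTAG and TCTT were searched on both strands with overlaps allowed. A match is a description and not a bound site.

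Most antisense CUTs lay in the 3′ part of the gene they faced. 263 of 430 lay wholly inside the ORF-T, and these started at a median of 91.9% of the way from its 5′ to its 3′ end and stopped at a median of 57.4%. Another 93 started beyond the 3′ end and stopped inside, at a median of 71.7%. The 5′ end of the ORF-T was covered by 74 CUTs, of which 64 started inside the gene and 10 covered the whole of it. CUTs that covered the 5′ end had a median length of 900 bases, against 432 bases for the 356 that did not. On their own strand, 354 of the 430 members overlapped a Nrd1-unterminated transcript (NUT), a transcript seen when Nrd1 is depleted from the nucleus. The authors annotated extended transcripts (ETs) downstream of mature sn/snoRNAs, which include unprocessed precursors and read-through products. 22 members overlapped such an ET on their strand, and 26 others overlapped an ORF-T. Reads in these 48 rows are also counted on the other row.

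**Figure D1:**
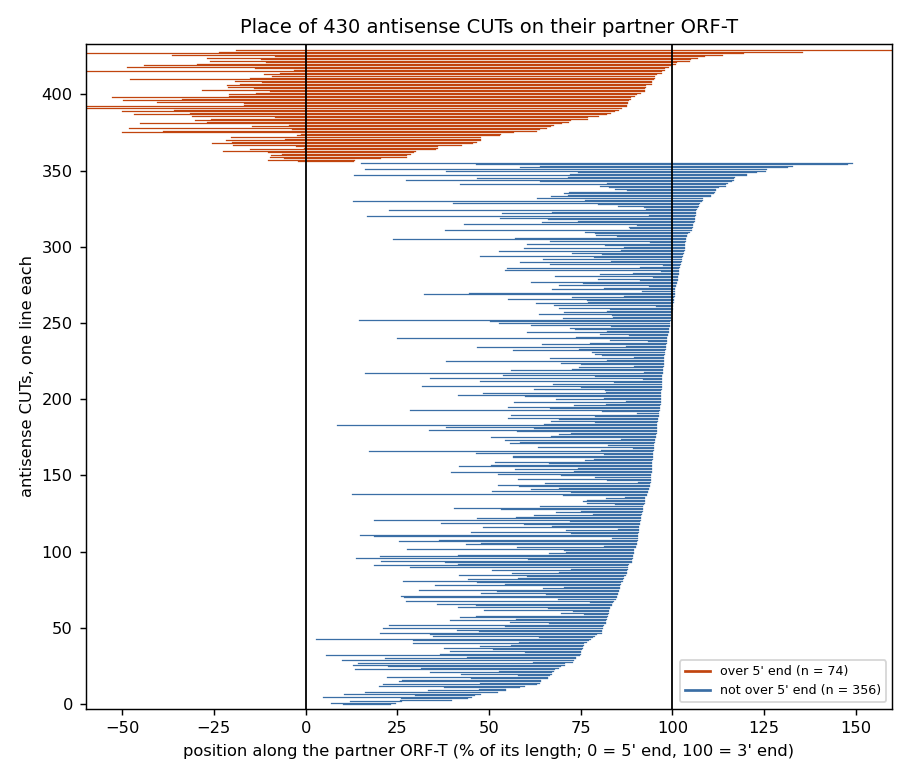
Each of 430 lines is an antisense CUT drawn along its partner ORF-T, with the position in percent of the ORF-T length from its 5′ end (0) to its 3′ end (100) on the x axis. Lines that run further than the frame are cut off. The 74 CUTs over the 5′ end (orange) fill most of the gene, and most of the 356 others (blue) lie toward the 3′ end.

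The antisense CUTs rose in *rrp6Δ* as a class. With edgeR's quasi-likelihood test, calling transcripts that changed at least 1.5-fold at p under 0.05 and at a Benjamini-Hochberg FDR up to 0.1 over all 10054 transcripts, 378 of 430 (87.9%) were up-regulated and 0 were down-regulated, at a median log2 fold change of 2.24. At an unadjusted p-value under 0.05, 385 were higher and 1 was lower, and DESeq2 called 0 lower. The share called up over all transcripts was 25.6%, and over the 302 CUTs that are not antisense to an ORF-T it was 71.9%, with a median log2 fold change of 1.70. WT levels were low. The median antisense CUT held 5.50 counts per WT library and 34.5 per *rrp6Δ* library. In 54 members no WT library held more than 3 counts, and with these set to their ratio to a floor of 3 counts per library the median log2 fold change was 2.03. In 342 members the lowest *rrp6Δ* library exceeded the highest WT library, which was the case for 21.9% of all transcripts. In these bulk cultures a change in a few cells and a change in every cell cannot be told apart.

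The size of the rise differed with the place of the CUT and with what else lay on its strand. CUTs inside the gene rose by a median of 2.48 (log2), with 243 of 263 up-regulated. CUTs over the 3′ end only had a median of 1.97, with 78 of 93 up-regulated. CUTs over the 5′ end had a median of 1.64, with 57 of 74 up-regulated. Without the 22 CUTs in an ET, 356 of 408 were up-regulated at a median of 2.16. The 22 CUTs in an ET were all up-regulated, at a median of 4.33 (log2), and at these rows a CUT and the extension of the snoRNA upstream cannot be told apart by counts. The 26 CUTs that overlap an ORF-T on their own strand had 9 up-regulated, at a median of 0.60. Of the 354 members that overlap a NUT, 331 (93.5%) were up-regulated, and of the 76 that do not, 47 (61.8%). These groups were compared by their counts and medians, without a test between them.

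Among called CUTs that leave the 5′ end free and whose libraries did not overlap between strains, CUT397, CUT274, CUT841 and CUT222 had the largest fitted rises. Counts per library are given in the order of replicates 1 to 4. CUT397 (chromosome XV, 1001515 to 1001835, sacCer3), antisense to *MSC6*, had 0 counts in all 4 WT libraries and 20, 9, 14 and 5 counts in the *rrp6Δ* libraries. Set against a floor of 3 counts per library, its normalized count was at least 2.46-fold higher in *rrp6Δ* (adjusted p = 0.00193). CUT274, antisense to *STE23*, a protease that processes a-factor, had 1 count over all WT libraries and 137 over all *rrp6Δ* libraries, a ratio of 92.4 with a 95% exact interval from 16.3 to 3678 that covers counting error only. It overlaps the ET of snR34.

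CUT841, antisense to *CUE5*, a ubiquitin-binding adaptor of autophagy, went from 1, 4, 7 and 3 counts (WT) to 268, 213, 460 and 327 (*rrp6Δ*). Its log2 fold change was 5.77 ± 0.49 (SE, n = 4 per strain, adjusted p = 2.6e-05 by edgeR), and it overlaps the ET of snR62. CUT222, antisense to *EFM3*, a lysine methyltransferase of elongation factor 2, went from 37, 47, 84 and 19 counts (WT) to 4782, 1623, 6575 and 3238 (*rrp6Δ*). It is the middle of 3 CUTs in tandem within the ET of snR3, all opposite *EFM3*. CUT221, the first of the 3, also had the highest WT level per length of all members that leave the 5′ end free, at 31.6 normalized counts per kilobase. That the strains did not overlap at these 4 CUTs was a condition of their choice.

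By the same rule, CUT565, CUT306, CUT261 and CUT012 had the largest fitted rises among CUTs over the 5′ end. CUT565, antisense to *VFA1*, whose product binds the AAA ATPase Vps4, went from 0, 0, 0 and 1 counts (WT) to 21, 7, 13 and 13 (*rrp6Δ*), a ratio of 36.4 with a 95% exact interval from 6.27 to 1466 for counting error only. CUT306, antisense to *CMC4*, a small protein of the mitochondrial intermembrane space, went from 223, 270, 297 and 88 counts (WT) to 7606, 6021, 8103 and 6335 (*rrp6Δ*), and it lies in the ET of snR11. At 85.4 normalized counts per kilobase it had the highest WT level of this group. By northern blot the authors saw no long snR11 read-through, and they propose that RNA there starts downstream of their probe. They also report polymerase further 3′ of snR11 in *rrp6Δ*. CUT261, antisense to *TIS11*, an mRNA-binding protein used when iron is scarce, went from 12, 3, 5 and 5 counts (WT) to 133, 75, 77 and 30 (*rrp6Δ*). CUT012, antisense to *PDX3*, the pyridoxine phosphate oxidase, went from 16, 12, 11 and 1 counts (WT) to 166, 117, 102 and 61 (*rrp6Δ*). The log2 fold changes were 4.4 ± 0.38 for CUT306, 3.06 ± 0.43 for CUT261 and 2.92 ± 0.46 for CUT012 (SE). The fitted value of CUT565, 4.68, rests on 1 WT count and went to 6.58 without WT replicate 4, which holds that count.

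High WT levels did not always come with a called rise. CUT046, antisense to *HSP30*, a plasma membrane stress protein, had 27.4 normalized counts per kilobase in WT and 26.7 in *rrp6Δ*, with a log2 fold change of -0.02 ± 0.34 (SE, adjusted p = 0.962 by edgeR). It overlaps the ORF-T YCR020W-B on its own strand. CUT551, antisense to *EDC2*, an mRNA decapping activator, went from 158, 75, 55 and 27 counts (WT) to 205, 182, 170 and 96 (*rrp6Δ*). Its log2 fold change of 0.60 ± 0.35 was not called (adjusted p = 0.204 by edgeR), but was called at 0.66 with the replicate number as a block (adjusted p = 0.0256 by edgeR). It was also called at 0.93 with TMM factors from ORF-Ts only, at 0.96 with library totals alone, at 0.97 with both block and ORF-T factors and at 0.96 without WT replicate 1 (adjusted p between 0.0039 and 0.0804 by edgeR). It overlaps *YER036C* on its own strand. CUT828, named after its values were seen, is antisense to *SDH5*, which is needed for flavin attachment to succinate dehydrogenase, and had the lowest log2 fold change of all members, at -0.86 ± 0.39 (adjusted p = 0.113 by edgeR). With the block it was down-regulated at -0.91 (adjusted p = 0.0351 by edgeR), the only such member in that fit. It overlaps the ORF-T YOL070C on its own strand.

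Partner ORF-Ts fell more often than they rose, as ORF-Ts in general did in this scaling. Of 403 partners, 82 (20.3%) were down-regulated and 2 were up-regulated, at a median log2 fold change of -0.41. Of the 5350 ORF-Ts that face no member CUT, 13.8% were down-regulated and 2.21% up-regulated, at a median of -0.31, and 9.61% of all transcripts were down-regulated. The median of the partners was therefore 0.10 below that of the other ORF-Ts on the log2 scale. The number of falls depends on how the libraries are scaled. With TMM factors from ORF-Ts only, which moves the median of the other ORF-Ts to -0.01, 16 partners were down-regulated and 8 up-regulated (3.97% down, against 2.56% of the other ORF-Ts), and with library totals alone the numbers were 9 and 7. The distance between the medians stayed at 0.10 with ORF-T factors and was 0.09 with library totals. With the replicate number as a block, 112 partners (27.8%) were down-regulated, against 18.8% of the other ORF-Ts. Partners were also of somewhat lower WT level, at a median of 17.7 normalized counts per kilobase, against 22.5 for the other ORF-Ts.

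Partners whose 5′ end lay inside the CUT had the lower median. Coverage was judged by the CUT rows alone, and longer antisense RNA was not considered. Of the 74 partners with a covered 5′ end, 19 (25.7%) were down-regulated and 1 up-regulated, at a median log2 fold change of -0.52. Of the 329 partners with an uncovered 5′ end, 63 (19.1%) were down-regulated and 1 up-regulated, at a median of -0.38. Relative to the other ORF-Ts the medians lay 0.21 and 0.07 lower. With TMM factors from ORF-Ts only these distances were 0.20 and 0.07. In that scaling 5 partners with covered (6.76%) and 11 with uncovered 5′ end (3.34%) were down-regulated, against 2.56% of the other ORF-Ts. The highest *rrp6Δ* library stayed under the lowest WT library for 21 of the 74 and for 62 of the 329, against 13.3% of the other ORF-Ts. Without *rrp6Δ* replicate 1, the 19 falls with covered 5′ end became 7 and the 63 with uncovered 5′ end became 30. Without *rrp6Δ* replicate 4, those with covered 5′ end became 12, and without WT replicates 1 and 4 in turn those with uncovered 5′ end became 40 and 37. Partners with a covered 5′ end were also shorter, at a median of 920 against 1469 bases. Their median WT level was lower too, at 15.2 against 18.4 normalized counts per kilobase. No test between the groups was made.

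**Figure D2:**
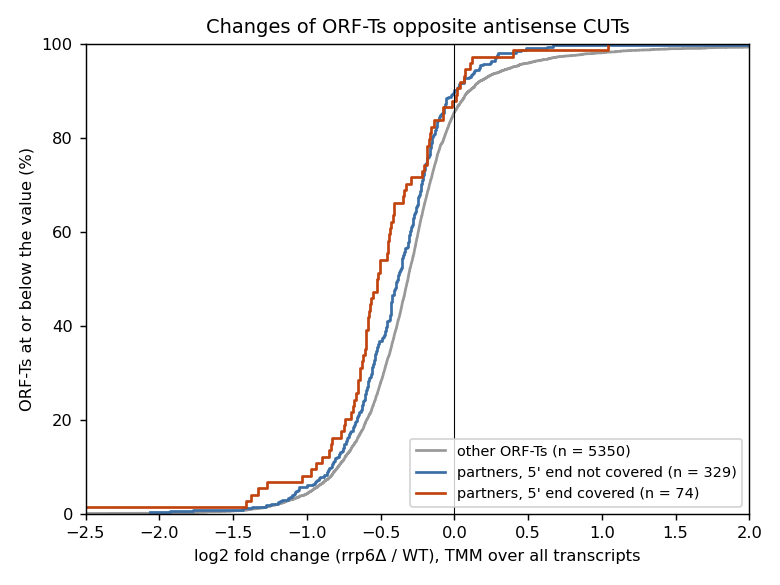
Cumulative share of ORF-Ts (y axis, percent) at or below each log2 fold change of *rrp6Δ* over WT (x axis), scaled with TMM over all transcripts. The curve of the 74 partners with a covered 5′ end (orange) lies left of that of the 329 partners with an uncovered 5′ end (blue) over most of its range, and the 5350 other ORF-Ts (grey) lie right of both at the middle.

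The deepest fall of any partner was that of *GYP5* (YPL249C), a GTPase-activating protein for Rab GTPases of secretion. CUT402 (chromosome XVI, 76705 to 79569) covers nearly the whole gene and reaches 189 bases past its 5′ end. *GYP5* went from 295, 117, 140 and 376 counts (WT replicates 1 to 4) to 62, 24, 21 and 51 (*rrp6Δ* replicates 1 to 4). Partners named for their fall were chosen among those whose libraries did not overlap between strains. The log2 fold change was -3.16 ± 0.44 (SE, adjusted p = 0.000464 by edgeR), and -2.86 with TMM factors from ORF-Ts only. CUT402 went from 24, 18, 6 and 13 counts (WT) to 51, 31, 48 and 34 (*rrp6Δ*), a log2 fold change of 0.89 ± 0.33 (adjusted p = 0.0591 by edgeR). The call of CUT402 was lost without WT replicate 3 (0.68) and without *rrp6Δ* replicate 3 (0.84).

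*RCE1* (YMR274C), the protease that trims prenylated proteins, and *CMC4* (YMR194C-B) were the other partners named with a covered 5′ end that fell. *RCE1* went from 40, 25, 24 and 26 counts (WT) to 29, 15, 23 and 17 (*rrp6Δ*), from 3.45 ± 0.24 to 1.67 ± 0.10 normalized counts (SD, n = 4). Its log2 fold change was -1.03 ± 0.28 (SE), and it was not called with library totals alone, at -0.67. CUT310 rose from 9, 11, 4 and 6 counts to 49, 36, 51 and 38. *CMC4* fell from 5.17 ± 1.98 to 1.99 ± 0.85 normalized counts (SD, n = 4), a log2 fold change of -1.38 ± 0.39 (SE, adjusted p = 0.0178 by edgeR). CUT306 reaches only 8 bases past the 5′ end of *CMC4*.

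*PHO5* (YBR093C), the secreted acid phosphatase, was named after its values were seen. Its 5′ end is covered by CUT025 (chromosome II, 429663 to 431775). *PHO5* went from 161, 217, 294 and 75 counts (WT) to 188, 93, 136 and 65 (*rrp6Δ*), and the strains overlapped, also after scaling. Its log2 fold change was -1.33 ± 0.40 (SE, adjusted p = 0.0244 by edgeR). CUT025 went from 214, 72, 113 and 40 counts (WT) to 600, 211, 609 and 292 (*rrp6Δ*), a log2 fold change of 1.41 ± 0.35.

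*PHO84* (YML123C) and its CUT281 (chromosome XIII, 23945 to 26105) did not separate the strains when libraries were taken as unpaired. CUT281 covers the gene almost whole and reaches 266 bases past its 5′ end. It went from 173, 32, 39 and 147 counts (WT) to 401, 90, 273 and 307 (*rrp6Δ*), and the libraries of the strains overlapped. The log2 fold change of 0.88 ± 0.47 (SE) was not called (adjusted p = 0.176 by edgeR). With the replicate number as a block it was 1.01 and called (adjusted p = 0.00131 by edgeR), and with TMM factors from ORF-Ts only it was 1.18 and called (adjusted p = 0.0783 by edgeR). Without WT replicate 4 it was 1.41 and called, and without *rrp6Δ* replicate 2 it was 1.12 and called. *PHO84* went from 2257, 2354, 2350 and 601 counts (WT) to 2774, 2182, 1911 and 809 (*rrp6Δ*), with a log2 fold change of -0.58 ± 0.40 (adjusted p = 0.288 by edgeR). It was called only without WT replicate 4, at -0.78. With the block *PHO84* stood at -0.49 (adjusted p = 0.0384 by edgeR), under the fold change needed for a call. Replicate 4 held the fewest *PHO84* counts in both strains.

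With all libraries, the deepest falls with the 5′ end uncovered were those of *LIN1*, *OYE3* and *DIT1*. *LIN1* (YHR156C) faces CUT180 and CUT181, both within the ET of snR71, and went from 53, 62, 41 and 62 counts (WT) to 20, 20, 14 and 23 (*rrp6Δ*). Its log2 fold change was -2.06 ± 0.35 (SE, adjusted p = 0.00129 by edgeR), while CUT180 rose by 4.25 ± 0.40 and CUT181 by 3.12 ± 0.37. The row of CUT181 stops 108 bases short of the 5′ end of *LIN1*. The authors, however, report snR71 read-through RNA in *rrp6Δ* that reaches past the *LIN1* start site. *OYE3* (YPL171C), an NADPH oxidoreductase of the old yellow enzyme family, went from 59, 39, 34 and 162 counts (WT) to 34, 18, 20 and 47 (*rrp6Δ*), a log2 fold change of -1.93 ± 0.56. Its WT replicate 4 stood at 23.1 normalized counts, against between 4.90 and 5.03 in the other WT libraries. Without that library the log2 fold change of *OYE3* (YPL171C) was -0.94 and still called (adjusted p = 0.0907 by edgeR), so that the depth of this fall rests on 1 library.

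CUT409, at the 3′ end of *OYE3*, went from 3, 6, 2 and 0 counts (WT) to 34, 17, 36 and 24 (*rrp6Δ*). *DIT1* (YDR403W), which acts in making the dityrosine of the spore wall and is little expressed in growing cells, went from 20, 16, 9 and 14 counts (WT) to 12, 4, 7 and 3 (*rrp6Δ*), a log2 fold change of -1.77 ± 0.40. Its CUT529 was not called, at 0.59 ± 0.41 (adjusted p = 0.287 by edgeR). *CUE5* (-1.28 ± 0.27) and *EFM3* (-1.43 ± 0.34), opposite CUTs in an ET, were also down-regulated. For *EFM3* too, the authors report extended snR3 RNA that passes its start site, although no CUT row covers it. *LIN1*, *OYE3*, *DIT1*, *CUE5* and *EFM3* kept that call when TMM was computed over ORF-Ts alone.

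Partners opposite a CUT in an ET were also counted apart from the rest. Of these 18 ORF-Ts, 9 were down-regulated, at a median log2 fold change of -0.62, and 5 with TMM factors from ORF-Ts only. Of the 385 other partners, 73 were down-regulated (18.96%), at a median of -0.41, against 13.8% of the ORF-Ts that face no member CUT. With TMM factors from ORF-Ts only, 11 were down-regulated (2.86%, against 2.56%), and with library totals alone 4 (1.04%, against 1.42%). Outside the ET group, called falls were thus close to the share of ORF-Ts in general in both of these scalings without a block. When the replicate number was a block and TMM factors came from ORF-Ts only, 27 of the 385 were down-regulated (7.01%, against 4.62% of the other ORF-Ts). Without the ET group, 17 of 72 partners with covered and 56 of 313 with uncovered 5′ end were down-regulated, so the order of these groups did not rest on it in this scaling. With TMM factors from ORF-Ts only the falls were 4 and 7, and with library totals alone 1 and 3. Block and ORF-T factors together gave 7 and 20.

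Only 2 partners were up-regulated, and both had few counts. YDR136C went from 7, 1, 2 and 3 counts (WT) to 33, 16, 24 and 11 (*rrp6Δ*), a log2 fold change of 2.09 ± 0.47 (SE, adjusted p = 0.00571 by edgeR). Its CUT069 rose too, by 1.22 ± 0.47, but lost its call without WT replicate 1, 3 or 4 and without *rrp6Δ* replicate 2 or 3. YOR186W, whose 5′ end lies in CUT854, went from 9, 5, 2 and 5 counts (WT) to 16, 16, 16 and 14 (*rrp6Δ*), a log2 fold change of 1.04 ± 0.41 (adjusted p = 0.0755 by edgeR). That call was lost without WT replicate 2 or 3 and without *rrp6Δ* replicate 2 or 3, at between 0.85 and 1.08. CUT854 rose by 2.62 ± 0.37, so both strands of this locus were higher in *rrp6Δ*.

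*FMP40* (YPL222W), a mitochondrial protein AMPylase, is a pair with a large antisense rise and no call on the gene. CUT882 (chromosome XVI, 131445 to 131685) lies wholly inside the gene, 1406 bases from its 5′ end. This row is only part of the antisense RNA at *FMP40*. The authors detect an antisense transcript, *YPL222C-A*, in WT and propose that CUT882 is its extension. They also report more polymerase through CUT882 and beyond the *FMP40* promoter in *rrp6Δ*. CUT882 went from 3, 6, 3 and 1 counts (WT) to 154, 111, 101 and 55 (*rrp6Δ*), a log2 fold change of 4.39 ± 0.46 (SE, adjusted p = 8.2e-05 by edgeR). *FMP40* went from 640, 338, 231 and 355 counts (WT) to 550, 301, 325 and 376 (*rrp6Δ*), with a log2 fold change of -0.53 ± 0.21 (adjusted p = 0.0681 by edgeR), which is under the fold change of 1.5 needed for a call. It passed that fold change without WT replicate 3, at -0.65. With the replicate number as a block *FMP40* stayed under it, at -0.53 (adjusted p = 0.00523 by edgeR).

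The change of the CUT and that of its partner were not closely related across pairs. Of the 378 pairs with an up-regulated CUT, 74 (19.6%) had a down-regulated partner and 2 an up-regulated partner. Of the 52 pairs whose CUT was not called, 15 (28.8%) had a down-regulated partner. With TMM factors from ORF-Ts only these numbers were 18 of 378 and 2 of 52, which reverses the order of the shares of pairs. ORF-Ts that face several CUTs, such as *EFM3* and *LIN1*, are counted repeatedly among the 18. The order was not examined with such ORF-Ts counted singly. Over the 403 partners, each taken with its most abundant CUT, Spearman's rho between the log2 fold changes was -0.02 and Pearson's r was -0.06. Spearman's rho was 0.04 over the 65 of these pairs with a covered and -0.07 over the 338 with an uncovered 5′ end. Between the level of the CUT per kilobase in *rrp6Δ* and the log2 fold change of the ORF-T, rho was -0.22 in the covered and -0.0014 in the uncovered pairs. Each pair shares its 8 libraries and the same scaling with all others, and no p-value is given. When partners were split into 4 groups by the level of the CUT per kilobase in *rrp6Δ*, the numbers down-regulated from the lowest to the highest level were 28 of 101, 14 of 101, 15 of 100 and 25 of 101. The highest group held CUTs up to 1803 normalized counts per kilobase.

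**Figure D3:**
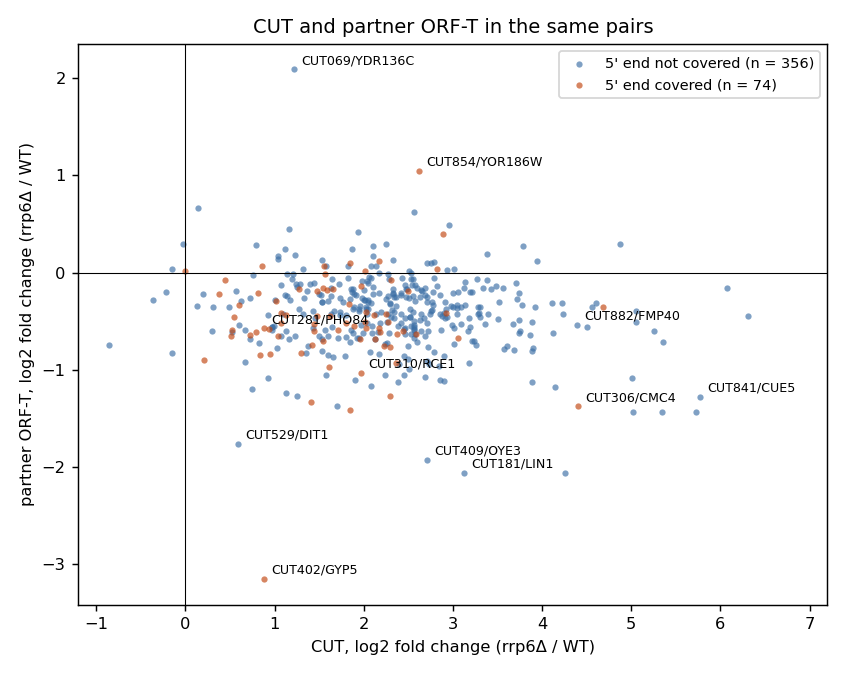
Log2 fold change of the CUT (x axis) and of its partner ORF-T (y axis) in 430 pairs, with the 74 pairs whose 5′ end is covered in orange and the 356 others in blue. Most points lie right of 0 and slightly below 0 without a slope, and the labelled *GYP5*, *LIN1*, *OYE3* and *DIT1* lie at -1.77 or lower.

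The antisense share of a pair, the CUT's counts divided by the sum of CUT and ORF-T counts in the same library, does not depend on the scaling of libraries. It was not corrected for length. The *rrp6Δ* libraries all exceeded the WT libraries for 341 of 430 pairs (79.3%), and in none of the pairs were they all below the WT libraries. For 333 pairs of a stable unannotated transcript (SUT) and an ORF-T chosen by the same rule, this was the case in 25.5%. The CUT's counts enter the share, so a higher share in *rrp6Δ* also follows from the definition of CUTs. The contrast with SUTs is therefore not independent evidence either. The median share over CUT pairs was between 1.44% and 3.45% in the WT libraries and between 10.9% and 16.9% in the *rrp6Δ* libraries. WT replicate 4, the library with the fewest counts, had the lowest median of the WT libraries and 0 counts on 62 member CUTs.

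Pairs with a covered 5′ end had the larger median antisense share. It went from 9.39% in WT to 30.7% in *rrp6Δ*, and that of the pairs with an uncovered 5′ end from 2.35% to 13.3%. CUTs over the 5′ end were also longer, and longer rows hold more counts. In *rrp6Δ*, 36 pairs had more CUT than ORF-T counts in every library, against 3 pairs in WT, which were CUT306 with *CMC4*, CUT221 with *EFM3* and CUT069 with YDR136C. A share above 10% in every library was reached by 43 pairs in WT and 200 in *rrp6Δ*. Of the 36 pairs, 9 had a CUT in an ET.

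The shares of the named pairs are given as a description, with no test. Most of these pairs were chosen for the change of the CUT or of the ORF-T in the same libraries, and the share is computed from those counts. At *FMP40* the share, which counts the row of CUT882 and no other antisense RNA, went from 0.94% in WT to 21.3% in *rrp6Δ* on average. It went from 7.08% to 52.8% at *GYP5*, from 20.5% to 67.9% at *RCE1*, from 5.93% to 49.2% at *OYE3* and from 37.5% to 76.9% at *DIT1*. At *CUE5* it went from 1.28% to 59.7%. At *PHO84* the share was 7.12%, 1.34%, 1.63% and 19.7% in WT and 12.6%, 3.96%, 12.5% and 27.5% in *rrp6Δ*. The strains overlapped at *PHO84*, but within each replicate number the *rrp6Δ* library was the higher. At YDR136C the share was 53.3%, 91.7%, 66.7% and 57.1% in WT and 43.1%, 65.2%, 52.9% and 47.6% in *rrp6Δ*. The strains overlapped there too, and within each replicate number the *rrp6Δ* library was the lower. YOR186W, *EDC2* and *HSP30* also overlapped, with no single direction over the replicate numbers.

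**Figure D4:**
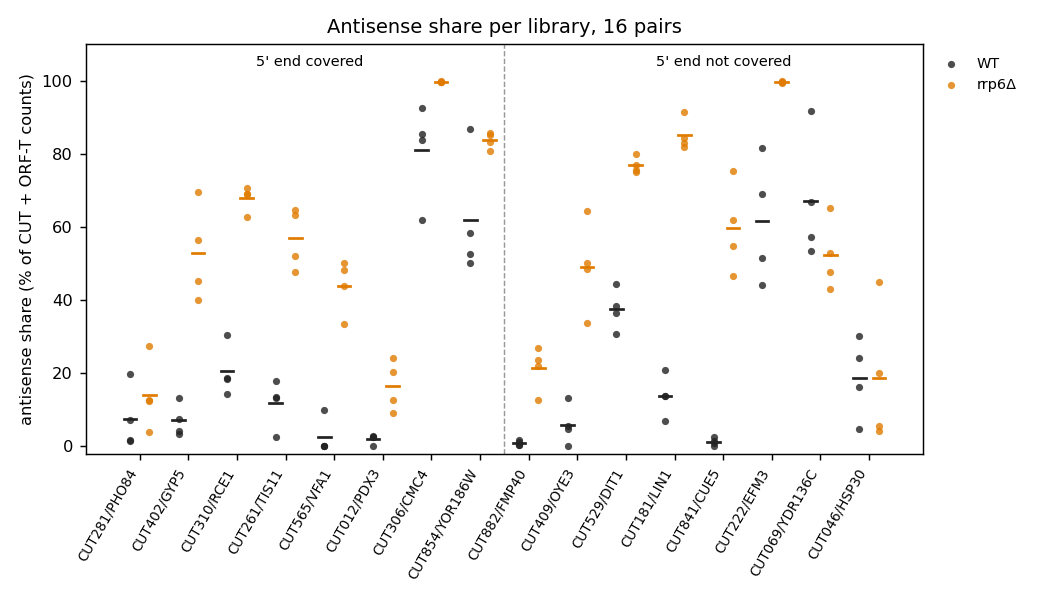
Antisense share (y axis, percent of CUT plus ORF-T counts) in each of 4 WT libraries (black) and 4 *rrp6Δ* libraries (orange) for 16 named pairs, with the mean as a bar, split by whether the CUT covers the 5′ end of the gene. The points of the strains are apart at *GYP5*, *RCE1*, *FMP40* and *OYE3* and overlap at *PHO84*, YOR186W, YDR136C and *HSP30*.

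Few genes that end and degrade CUTs, or modify histones where they are made, passed the test. Of 30 genes listed by function, 1 was up-regulated and 0 were down-regulated, at a median log2 fold change of -0.17. Of all 5753 ORF-Ts, 120 were up-regulated and 820 (14.3%) down-regulated, at a median of -0.32. The one that rose was *NRD1*, which went from 153, 191, 93 and 243 counts (WT) to 562, 289, 470 and 403 (*rrp6Δ*), a log2 fold change of 0.70 ± 0.29 (SE, adjusted p = 0.0919 by edgeR). With TMM factors from ORF-Ts only, *SSU72*, a phosphatase of the polymerase's C-terminal domain that acts in termination, was up-regulated as well. *NAB3* had a log2 fold change of -0.61 and was not called (adjusted p = 0.177 by edgeR). Of the 7 genes of TRAMP and exosome cofactors, the 10 other exosome subunits and the 8 histone-modifying genes linked to antisense transcription, edgeR and DESeq2 called 0 in either direction and 0 had an unadjusted p-value under 0.05, among them *SET1* (-0.44) and *HDA1* (-0.15).

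On chromosome XI the CUT rows and the NUT rows lay displaced from each other. Where a CUT and a NUT on the same strand started within 600 bases of each other, the start of the NUT lay a median of 309 (plus strand) and 339 (minus strand) bases higher in coordinate on chromosome XI (24 CUTs), against -29 and 33 on the other chromosomes (430 CUTs). Which of these annotations departs from the transcripts was not tested, and the 18 members on that chromosome may face another part of their gene than the rows say. Without them, 364 of 412 CUTs were up-regulated and 76 of 387 partners down-regulated, and 326 pairs had a higher share in every *rrp6Δ* library. In 30 partners the ORF-T row did not hold the whole RefSeq coding region, and without these 354 of 398 CUTs were up-regulated and 78 of 373 partners down-regulated.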

How the data were processed

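Total RNA was extracted with hot acid phenol and sequenced on a SOLiD instrument. The authors mapped reads to sacCer3 with bfast and deposited raw counts per transcript and library, which were analysed here. The methods describe more than 1 mapping and do not name that behind the counts. Also deposited by the authors, and not used, are a normalized signal for each library and their own log2 fold changes, p-values and FDRs. Annotations overlap, so a read can be counted on several rows.

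Total counts lay between 6904004 and 12666126 per library, TMM factors between 0.735 and 1.37, and a floor of 3 counts between 0.183 and 0.444 normalized counts (CPM on the TMM-scaled library size). Strains were compared with edgeR 4.0.16 in R 4.3.3 (glmQLFit and glmQLFTest on all 10054 transcripts, no filter, no covariates), and the procedure was tested on simulated data. The standard error (SE) is the log2 fold change divided by the square root of F. DESeq2 1.42.0 was an alternative. Python 3.11.15 (pandas 2.3.3, scipy 1.17.1) was used for shares, overlaps, motifs and exact intervals. Gene symbols came from RefSeq R64, in which 401 of 403 partners were found. If a CUT had several qualifying ORF-Ts (4 CUTs), that with the largest overlap was taken.

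The numbers 1 to 4 pair the libraries: after removal of strain means, log2 values correlated at between 0.33 and 0.52 for the same number and at between -0.35 and 0.01 for others. The members and lists were chosen with earlier results of these data known. Named pairs were CUT281 with *PHO84*, CUT882 with *FMP40* and, for covered and uncovered 5′ ends separately, the 4 called CUTs with the largest rise and the 3 called partners with the largest fall and rise (libraries not overlapping), the 2 CUTs with the highest WT level per kilobase, and pairs with more than 50% antisense share in every WT library.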

Additional observations from a re-analysis of the deposited data

Results flagged for a closer look

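Among the 21 named pairs, single libraries stood apart from the other 3 of their strain by Dixon's criterion in 12 of the 125 groups of 4 values examined, and chance flags about 5% of groups. WT replicate 4 was the library apart in 5 of them. It held 10% antisense share (0.143 normalized counts) of CUT565 where the others had 0, 0.166% share of CUT012 against between 2.49% and 2.94%, 32.0 normalized counts of *EDC2* (YER035W) against between 17.0 and 17.7, and 23.1 of *OYE3* (YPL171C) against between 4.90 and 5.03. WT replicate 2 had 13.8 normalized counts of *TIS11* (YLR136C) against between 4.57 and 4.89, and 1.38 of CUT069 against between 0.571 and 0.677. WT replicate 1 held the single WT count of CUT274, at 0.0846 normalized counts and a share of 0.0507%. In *rrp6Δ*, replicate 1 had 464 normalized counts of CUT306 against between 607 and 626. Replicate 4 had 1.72 normalized counts of *EFM3* (YJR129C) against between 0.831 and 0.982, and a share of 1.5% at CUT397 against between 5.13% and 5.65%.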

How the results depend on the processing

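The direction and side of the threshold held for 568 of the 618 values of named transcripts under other settings, while 15 lost and 12 gained a call and 23 changed sign, all of the latter in transcripts that were not called. Antisense CUTs called higher stayed within 1.5 times of 378 except with at least 10 counts in every library (38 of the 52 CUTs left) and with the whole CUT opposite the ORF-T (244 of 264). That restriction also gave 1 partner up-regulated and 47 down-regulated, 0 with a covered 5′ end by construction, and 219 pairs with a higher share. Of partners, TMM factors from ORF-Ts only gave 8 up and 16 down (5 covered, 11 uncovered), and library totals alone 7 up and 9 down (2 covered, 7 uncovered). Library totals put 2.23% of partners down, against 1.42% of the other ORF-Ts. At least 10 counts in every library gave 0 up and 13 down (3 covered, 10 uncovered), where fewer transcripts were tested and the scaling changed with them. There 3.41% of partners were down, against 1.91% of the other ORF-Ts. An FDR of 0.05 gave 1 up and 51 down (38 uncovered). Without ORF-T rows that miss their coding region, 1 partner was up-regulated. Leaving out single libraries gave between 347 and 386 CUTs up and between 0 and 1 down, between 1 and 4 partners up and between 37 and 88 down, between 7 and 18 down with a covered and between 30 and 70 with an uncovered 5′ end, and between 342 and 374 pairs with a higher share. The lowest numbers of falls came without *rrp6Δ* replicate 1, and the cause was not tested.

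With the replicate number as a block, 398 CUTs were up-regulated and 1 was down-regulated, 112 partners were down-regulated (28 covered, 84 uncovered), and CUT281 and CUT551 were the named transcripts that gained a call. The block with TMM factors from ORF-Ts only gave 9 partners up and 32 down (8 covered, 24 uncovered). In that fit 7.94% of partners were down, against 4.62% of the other ORF-Ts. Sign changes were those of CUT046, at 0.29 with ORF-T factors, 0.41 with library totals, 0.30 with both block and ORF-T factors, 0.00014 with DESeq2, 0.0019 with filterByExpr and 0.20 with at least 10 counts. *VFA1* (YER128W) stood at 0.093 with library totals and 0.044 with block and ORF-T factors, and *EDC2* (YER035W) at 0.0013 and 0.018. *STE23* (YLR389C) stood at 0.15 with ORF-T factors, 0.19 with totals, 0.13 with block and ORF-T factors and 0.063 with at least 10 counts. Without single libraries, CUT046 lay between -0.17 and 0.17, *VFA1* between -0.55 and 0.15, *EDC2* between -0.42 and 0.011 and *HSP30* (YCR021C) between -0.39 and 1.41. DESeq2, filterByExpr, a reach of 50 bases past the 5′ end and leaving out CUTs that share their strand with another counted row moved no count by more than 1.5 times. At a median of 5.50 counts per WT library, small differences between single CUTs were not detectable at this depth. The settings that leave out chromosome XI or ORF-T rows that miss their coding region were chosen after seeing the data.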
